A study of Mus musculus with 6 samples.

Results

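The genes described here are the Snail genes *Snai1*, *Snai2* (*Slug*), and *Snai3*, the Scratch genes *Scrt1* and *Scrt2*, the zinc finger genes *Zeb1* and *Zeb2*, and the basic helix-loop-helix genes *Twist1* and *Twist2*. They were chosen by symbol, 9 in all, each taken from a row of the value table that names no other gene. *Snai1*, *Snai2*, *Snai3*, *Scrt1*, *Scrt2*, *Zeb1*, *Twist1*, and *Twist2* had such a row, 1 each, and make up 8 of the 21507 genes tested. The row of *Zeb2* also carries the symbol of the antisense gene *Zeb2os* and was kept out of the gene tests.

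Expression was measured in mouse hypothalamus on 6 arrays. The control group, Slug fl/fl (3 arrays), carries a floxed *Slug* gene. The ΔLepR group, Slug fl/fl; LepR Cre/Cre (3 arrays), carries the same floxed gene and Cre at both leptin receptor alleles. For both groups the labels give chow and an age of 8 weeks, while the study's methods give an older age. The labels name an inducible CreERT2, whereas the methods describe Cre inserted into the 3′-UTR of the leptin receptor gene. No arrays with Cre alone were analysed here, so deletion and Cre insertion cannot be told apart. Cre acts only in cells with the long leptin receptor, and in whole tissue fewer cells of a type and less RNA per cell cannot be told apart either. Nothing ties an array to 1 mouse, so the tests reflect only how far these arrays scatter, which may be technical.

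Snail and Scratch proteins carry a short SNAG motif at the N terminus that recruits corepressors, and C-terminal zinc fingers that bind the E2 box, a form of the E-box sequence CANNTG. Zeb proteins bind the same box through separate clusters of zinc fingers, and Twist proteins bind E-boxes as dimers with E-proteins. Snail, Zeb, and Twist factors are best known for epithelial-mesenchymal transition, in which they repress E-cadherin, and for roles in neural crest and mesoderm. Scratch factors are known from neurons.

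The promoter match below is shown because it is the box that the Snail proteins bind, in the promoter of a Snail gene. RefSeq promoter windows (GRCm38.p6, 250 bases before to 50 after the start site) were on hand for *Snai1*, *Zeb2*, *Twist1*, and *Twist2*. They were searched for CAGGTG on both strands, where the reverse strand reads CACCTG. *Snai1* held 1 match, which begins 126 bases before the start site. It lies within chr2:167538057-167538086 on the + strand and is printed with the E2 box in capitals.
Snai1 promoter: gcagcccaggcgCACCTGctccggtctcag
The windows of *Twist1*, *Twist2*, and *Zeb2* did not hold these letters, which occur in 20.2% of all 32851 windows. A match is a description of the sequence and no evidence of binding.

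The sex markers of all 6 arrays went against the study's text, which gives males. *Xist*, the RNA that coats the inactive X chromosome of females, was 9.16 to 9.51 on the log2 scale, at or above the percentile of 98.8 among the genes of each array. The Y-linked genes *Eif2s3y*, *Kdm5d*, and *Uty* were 1.81 to 2.95. Of 9 protein-coding Y genes with a row, 8 stayed under the median of all genes on every array, and *Sry*, at up to 4.205, was the other. As for tissue, *Pmch*, *Avp*, *Oxt*, and *Trh*, peptide genes of hypothalamic neurons, were at 7.67 or more on every array. *Hdc*, *Hcrt*, and *Sim1*, which mark other hypothalamic neurons, were at 4.82 to 6.08, and *Pomc* and *Nr5a1* were lower, at 3.38 to 4.54. The arrays correlated at 0.991 to 0.993, and their medians were 4.04 to 4.07.

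*Snai2*, the gene that the label names as deleted, was higher in the ΔLepR-labeled arrays. Its log2 values were 3.79, 4.23, and 4.23 on the control-labeled arrays and 10.36, 9.68, and 10.49 on the ΔLepR-labeled arrays. The groups were 5.45 apart at their nearest arrays, well beyond the spread within either (SD 0.25 and 0.44, n = 3 each). The log2 difference was 6.09 (SE 0.21, 95% interval 5.63 to 6.55), or 68.2-fold with an interval of 49.6 to 93.9 (limma, adjusted p = 1.6e-06). A two-sided exact permutation test gave p = 0.10, which is the lowest value possible with 3 arrays per group. With the methods' t-test the adjusted p was 0.19. This direction goes against the labeled deletion, and groups are therefore named by their labels throughout. Whether the labels of the groups were exchanged was not tested, and if they were, the sign of every difference given here would turn. By RNAscope the study found hypothalamic neurons with both *Slug* and leptin receptor RNA in Slug fl/fl but not in ΔLepR mice. It also raised *Slug* in the hypothalamus of ΔLepR mice with viral vectors, and whether such tissue was on these arrays was not tested. Which part of the transcript the *Snai2* probes cover was not analysed here. Whether their position bears on the log2 difference of 6.09 was not tested.

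The difference was the largest in size of all 21507 genes, followed by *Pisd-ps3* at 1.54. A gene was called when its unadjusted p was under 0.05 and its level was more than 25% higher or lower. *Snai2* was the 1 member of 8 called, where 2.01% of all genes were called in either direction. For higher genes alone the share over all genes was 1.44%, and for lower genes, with 0 members, it was 0.577%. With the group labels exchanged, *Snai2* would be called lower, and 268 genes would be called higher and 134 lower in place of 309 and 124. These counts differ only because the limits are unequal on the log2 scale, at 0.32 and -0.42, and they test nothing about the labels. *Snai2* was also the only member with an adjusted p under 0.05, which 0.0139% of all genes had.

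**Figure D1:**
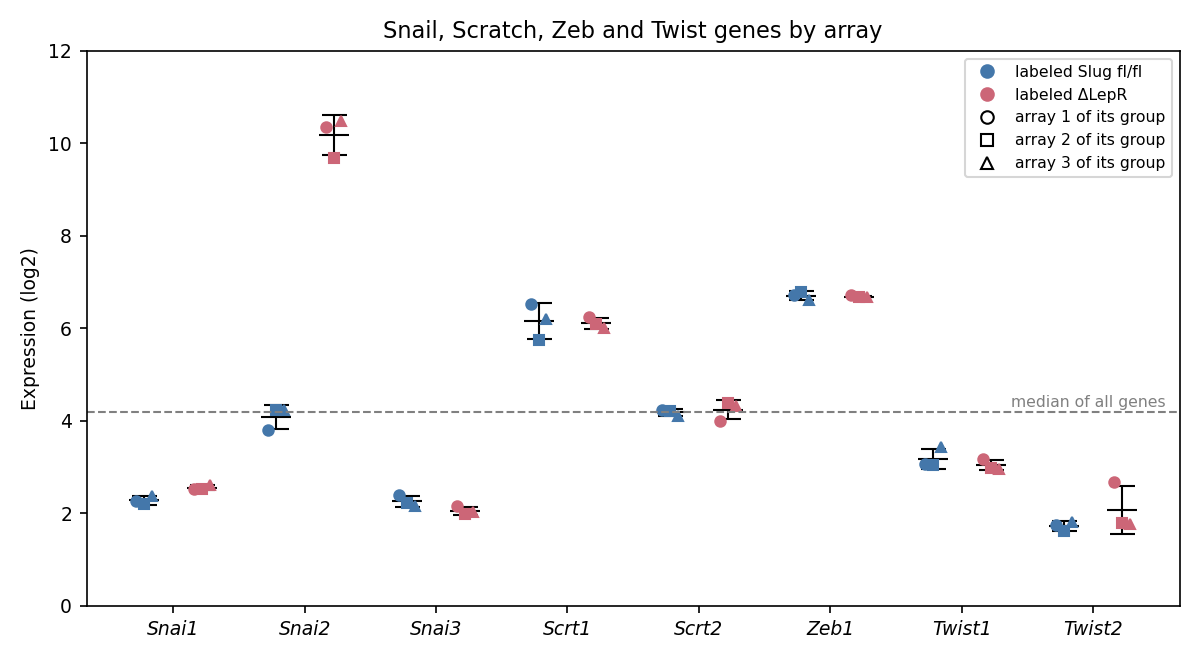
Log2 expression of the 8 measured genes on each array, with group mean and SD (bars, n = 3), for arrays labeled Slug fl/fl (blue) and ΔLepR (red). The dashed line is the median of all genes, 4.18. *Snai2* sits near that line on the blue arrays and at 9.68 to 10.49 on the red, while group means of the other 7 genes differ by at most 0.36.

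Markers of other cells were looked at beside the step in *Snai2*. Over all genes 2.01% were called in either direction, and 11.5% had groups that did not overlap. Of 8 meningeal and perivascular fibroblast markers 0 were called. *Col1a1*, higher by a log2 difference of 0.23 (SE 0.10), was the 1 whose groups did not overlap. The mean level of the 8 was 4.10 to 4.24 on the control-labeled arrays and 4.10 to 4.31 on the ΔLepR-labeled arrays, so the groups overlapped. Of 4 markers of oligodendrocyte precursors 1 was called, *Cspg4*, which pericytes also express, at 1.40-fold higher (limma, adjusted p = 0.55). The mean of these 4 was 5.57 to 5.86 and then 5.93 to 6.04, without overlap. *Cspg4*, *Olig1*, and *Pdgfra* each had groups that did not overlap, with log2 differences of 0.23 in *Olig1* and 0.18 in *Pdgfra*. *Sox10* among them had a log2 difference of 0.0013. The other 4 mural cell markers did not move with *Cspg4*, with log2 differences of -0.31 in *Acta2* (groups not overlapping), -0.14 in *Rgs5*, -0.032 in *Kcnj8*, and 0.029 in *Pdgfrb*, none of them called. Of 5 endothelial markers 0 were called, and they ran from -0.32 in *Cdh5* to 0.23 in *Pecam1*, the 1 whose groups did not overlap. Of 9 hypothalamic neuron markers measured 2 were called without overlap. *Avp* (vasopressin) was lower with a log2 difference of -0.46 (SE 0.14), and *Hdc* (histamine synthesis) was higher at 0.44 (SE 0.12). Their adjusted p was 0.77 and 0.74 (limma). The mean of the 9 overlapped, at 6.42 to 6.78 and then 6.55 to 6.69. The mean of 4 astrocyte markers, 7.54 to 7.73 and then 7.42 to 7.52, was lower without overlap. So was that of 6 microglia markers, at 5.37 to 5.39 and then 5.23 to 5.36, and 0 of either list were called. List means of neurons, oligodendrocytes, choroid plexus, and cortex and thalamus overlapped. In the last of these *Neurod6* was called higher at 0.34 (SE 0.14, limma, adjusted p = 0.84), with overlapping groups. The part of any of these cells in the *Snai2* value was not tested.

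*Snai1*, the Snail gene best known from epithelial-mesenchymal transition and the carrier of the E2 box above, was slightly higher. Its log2 values were 2.26, 2.20, and 2.37 on the control-labeled arrays, and 2.52, 2.51, and 2.61 on the ΔLepR-labeled arrays. The groups did not overlap, with a gap of 0.14. The log2 difference was 0.27 (SE 0.10, 95% interval 0.055 to 0.48), or 1.20-fold, with an unadjusted p of 0.019 and an adjusted p of 0.84 (limma). It fell short of the 25% limit, so *Snai1* was not called. *Snai2* and *Snai1* were the 2 members with an unadjusted p under 0.05, against 5.85% of all genes in either direction, 2.93% higher and 2.92% lower. Without control array 2 or ΔLepR array 3 the difference in *Snai1* was 0.23 or 0.24, with unadjusted p = 0.069 and 0.061 (limma).

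*Snai3*, the remaining Snail gene, had values of 2.39, 2.22, and 2.15 on the control-labeled arrays and 2.15, 1.98, and 2.03 on the ΔLepR-labeled arrays. The groups did not overlap, but their nearest arrays were only 0.00047 apart. The log2 difference was -0.20 (SE 0.10, 95% interval -0.43 to 0.035), with an adjusted p of 0.86 (limma). With *Snai2* and *Snai1* on the higher side and *Snai3* on the lower, 3 of 8 members had groups that did not overlap. Over all genes this share was 11.5%, made up of 5.91% higher and 5.56% lower. Since *Snai2* was known beforehand, the count of members is only a description.

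The Scratch genes were not called. *Scrt1*, a repressor found in neurons, was 6.53, 5.74, and 6.19 on the control-labeled arrays and 6.24, 6.10, and 5.999 on the ΔLepR-labeled arrays. The control arrays enclosed the others, with an SD of 0.40 against 0.12. Its log2 difference was -0.046 (SE 0.18, interval -0.44 to 0.35), so a ratio anywhere from 0.737 to 1.27 lies within the interval. *Scrt2*, its paralog, was 4.24, 4.21, and 4.10, and then 3.998, 4.39, and 4.32. Here the ΔLepR-labeled arrays enclosed the controls, and the log2 difference was 0.052 (SE 0.12, interval -0.22 to 0.32).

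*Zeb1*, a repressor of epithelial genes, had the lowest spread of the 8 members. It was 6.72, 6.78, and 6.60 on the control-labeled arrays and 6.71, 6.67, and 6.67 on the ΔLepR-labeled arrays. The groups overlapped, and the log2 difference was -0.018 (SE 0.09, interval -0.23 to 0.19). Its SD within groups was 0.067, at the percentile of 9.12 among all genes. The row shared by *Zeb2* and *Zeb2os* was 2.83, 2.85, and 2.20, and then 2.40, 2.53, and 2.67, also overlapping. Its log2 difference in a fit of all 24663 rows was -0.093 (SE 0.17, interval -0.47 to 0.29), and it does not tell the gene from its antisense partner.

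*Twist1*, a factor of mesoderm and neural crest, was 3.05, 3.04, and 3.43 on the control-labeled arrays and 3.17, 2.98, and 2.96 on the ΔLepR-labeled arrays. These overlapped, and the log2 difference was -0.14 (SE 0.13, interval -0.42 to 0.15). *Twist2*, its paralog, was 1.75, 1.60, and 1.81, and then 2.67, 1.78, and 1.76. A single array, ΔLepR array 1, stood above the other 5. The log2 difference was 0.36 (SE 0.21, interval -0.12 to 0.83), and it was 0.056 without that array. Without ΔLepR array 3 it was 0.51 and the gene was called (limma, unadjusted p = 0.048, adjusted p = 0.81).

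ΔLepR array 1 also stood apart in pituitary genes. It had the highest *Prl*, at 5.16 against 2.60 to 3.01 on the others, and the highest *Gh*, at 3.79 against 2.76 to 3.11. Of 5 pituitary markers 0 were called between groups. Their mean was 3.08 to 3.36 on the control-labeled arrays and 3.03 to 3.67 on the ΔLepR-labeled arrays. *Lhb*, *Tshb*, and *Cga*, the other pituitary markers, were not highest on that array, and the part of pituitary tissue in the *Twist2* value was not tested.

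**Figure D2:**
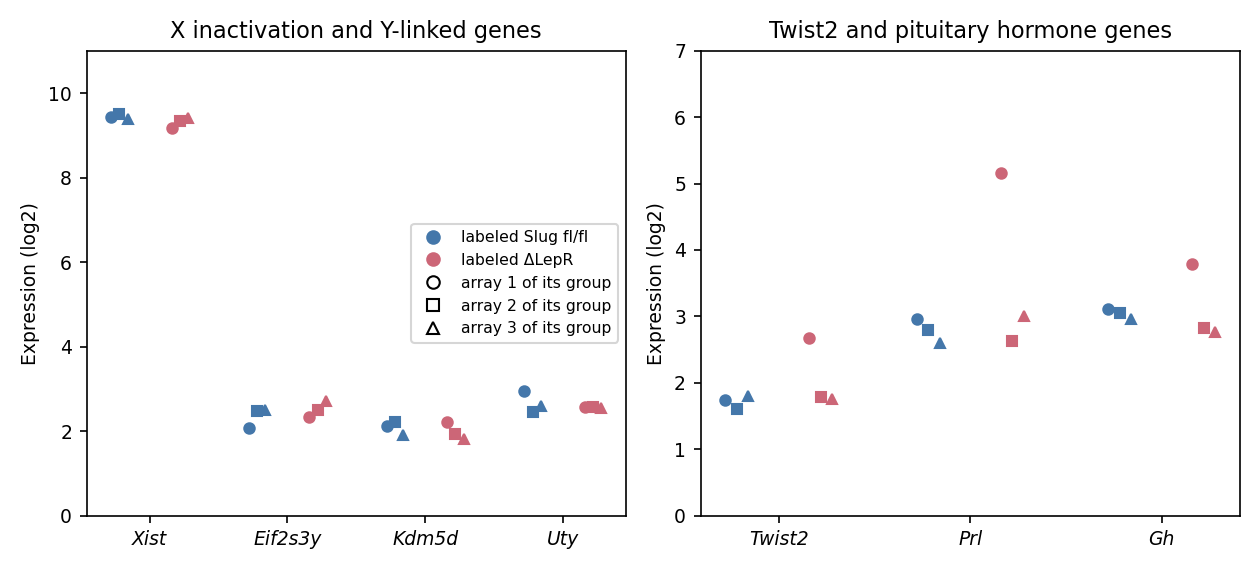
Log2 expression on each array of *Xist* and 3 Y-linked genes (left) and of *Twist2*, *Prl*, and *Gh* (right), colored by labeled group, with marker shapes for arrays 1 to 3. *Xist* is above 9 and the Y-linked genes are under 3 on all 6 arrays, and ΔLepR array 1 (red circle) is the highest for *Twist2* (2.67), *Prl* (5.16), and *Gh* (3.79).

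Among the 7 members other than *Snai2*, 3 log2 differences were positive and 4 negative, with a median of -0.018 against 0.0021 for all genes. The interval stayed within 0.5 of 0 for 6 of the 7, all but *Twist2*, as it did for 85.1% of all genes. The log2 difference between *Snai2* and a relative on the same array shifted by 5.74 (*Twist2*) to 6.29 (*Snai3*) between the groups. All 7 values use the same *Snai2* step and are no separate evidence of it.

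**Figure D3:**
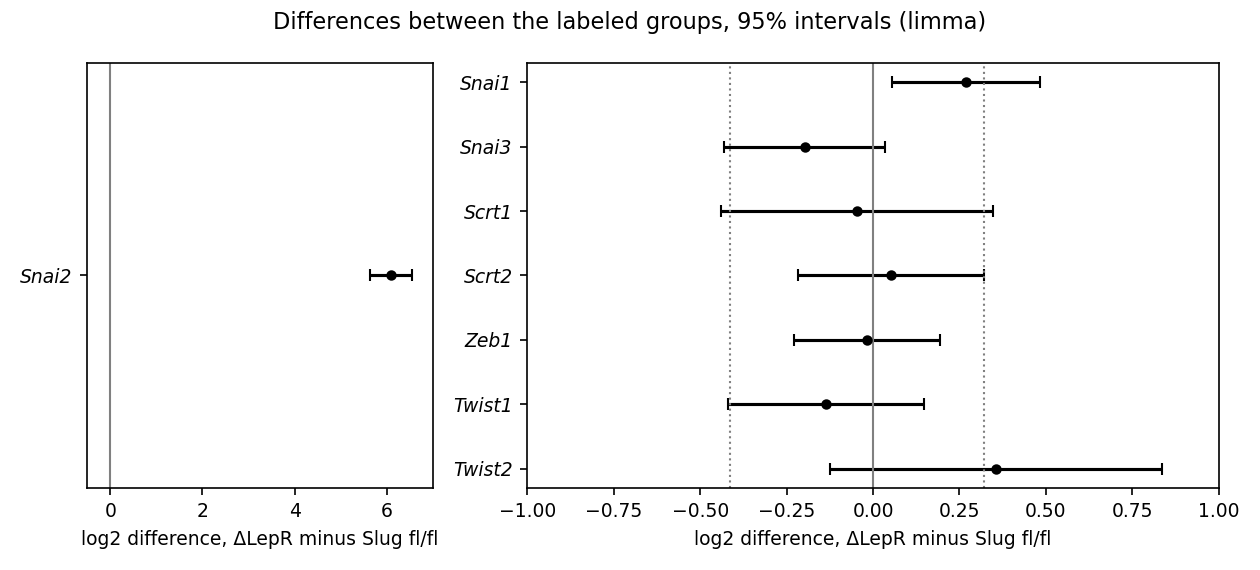
Log2 difference, ΔLepR minus Slug fl/fl, with 95% intervals from limma, for *Snai2* (left, on its own scale) and the other 7 members (right). Dotted lines mark 25% higher and 25% lower. *Snai2* lies at 6.09, *Snai1* has an interval above 0 (0.055 to 0.48), and the other 6 intervals include 0.

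The percentile of a gene among the 21507 genes of the same array gives its place there. A value also depends on the probes, so percentiles are no order of RNA amounts. *Snai2* was at percentiles 44.3, 50.6, and 50.7 on the control-labeled arrays, and at 99.8, 99.4, and 99.8 on the ΔLepR-labeled arrays. By group mean it went from rank 11053 to rank 74. *Zeb1* (83.6 to 85.5) and *Scrt1* (72.0 to 82.7) lay in the upper part of every array, *Scrt2* near the middle (47.6 to 52.6), and *Twist1* below it (29.96 to 38.8). *Snai1* (12.8 to 22.2), *Snai3* (8.28 to 16.8), and *Twist2* (2.80 to 22.9) lay in the lower part.

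On the control-labeled arrays the order of mean values was *Zeb1*, *Scrt1*, *Scrt2*, *Snai2*, *Twist1*, *Snai1*, *Snai3*, and *Twist2*. Neighbors that overlapped in that order were *Scrt2* with *Snai2* and *Snai1* with *Snai3*. On the ΔLepR-labeled arrays *Snai2* came first, followed by *Zeb1*, *Scrt1*, *Scrt2*, *Twist1*, *Snai1*, *Twist2*, and *Snai3*. There *Twist2* overlapped with both *Snai1* and *Snai3*.

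**Figure D4:**
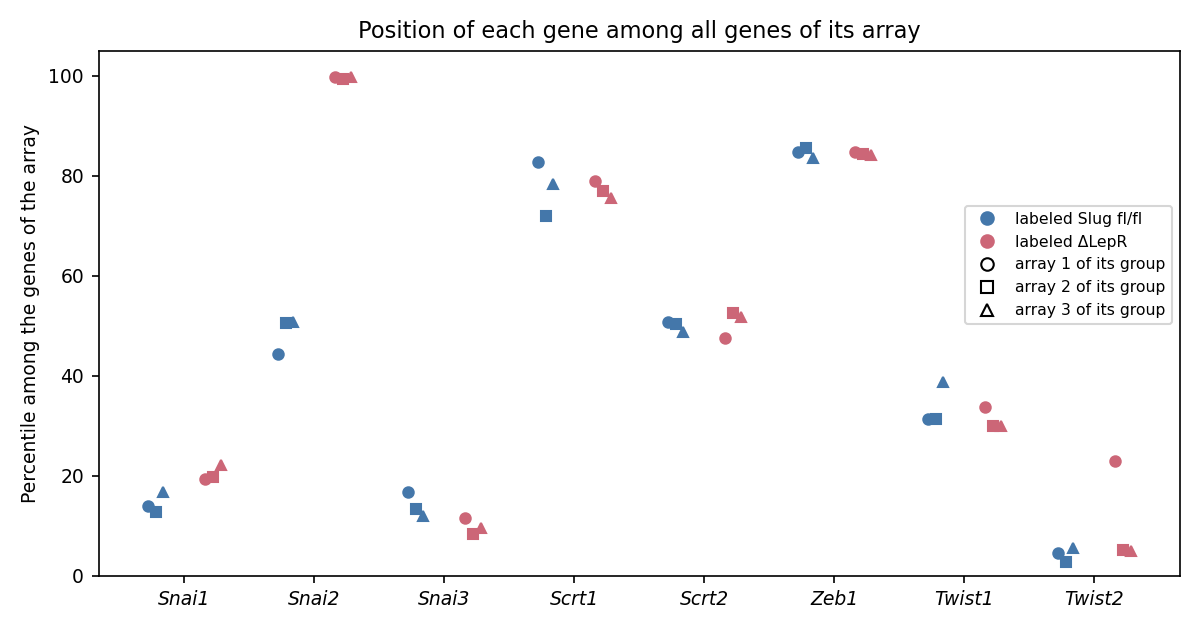
Percentile of each member among the 21507 genes of the same array (points, 3 arrays per group, blue for Slug fl/fl and red for ΔLepR). *Snai2* moves from between 44.3 and 50.7 on the control-labeled arrays to above 99 on the others, and *Twist2* has 1 ΔLepR array at 22.9.

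No gene came near the *Snai2* profile by a measure that counts the size of the step. No other step neared that of *Snai2*, so this outcome was fixed and does not tell whether profiles share a shape. Likeness was taken as the mean absolute log2 difference over the 6 arrays after each gene was centred on its own mean, with 0 for an identical profile and a median of 3.05 over all genes. The nearest were *Pisd-ps3* (2.28), *9030025P20Rik* (2.35), and *2900052N01Rik* (2.43). With the sign turned, the nearest were *2610042L04Rik* (2.43), *Mid1* (2.44), which encodes a ubiquitin ligase, and *Armcx1* (2.47). They are near because they step between the groups, and their likeness carries no test.

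Partners and regulators of these factors were described in 7 lists. Of 59 listed genes 55 were measured, 1 of these was called higher and 0 lower, and 54 were not called, where 2.01% of all genes were called. In limma 4 of the 55 had an unadjusted p under 0.05, against 5.85% of all genes, and 0 had an adjusted p under 0.05. Neither count is a result about the lists. The median log2 difference was 0.035, and all 55 lay between -0.26 and 0.38.

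The called gene was *Smad3*, which carries TGF-β signals that induce Snail genes. Its values were 4.57, 4.47, and 4.74 on the control-labeled arrays and 5.04, 5.04, and 4.84 on the ΔLepR-labeled arrays, without overlap. The log2 difference was 0.38 (SE 0.11, interval 0.13 to 0.62), or 1.30-fold (limma, unadjusted p = 0.0068, adjusted p = 0.77). Without control array 2 it was 0.31 and fell short of the 25% limit. The other 11 upstream signal genes measured were not called. *Sox9*, a factor of neural crest and glia, was 6.44, 6.30, and 6.52, and then 6.12, 6.24, and 6.12, a log2 difference of -0.26 (SE 0.10) with an adjusted p of 0.84 (limma). The ligands *Tgfb1* (-0.12), *Tgfb2* (0.031), *Tgfb3* (0.044), and *Bmp4* (-0.020) are named for their known role, outside the rule for named genes. So are the receptor genes *Tgfbr1* (0.089) and *Tgfbr2* (-0.20), and the groups of *Tgfbr2* did not overlap.

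Gfi and Insm repressors share the SNAG motif, and 2 of their 4 genes had an unadjusted p under 0.05 without reaching the 25% limit. Over all genes 5.85% had such a p, and this list of 4 is 1 of the 7 looked at. *Insm1*, a factor of neuroendocrine cells, was 4.65, 4.71, and 4.59, and then 4.41, 4.43, and 4.44, a log2 difference of -0.23 (SE 0.09, interval -0.43 to -0.023). *Gfi1b*, known from blood cells, was 4.28, 4.15, and 4.24, and then 4.07, 3.92, and 3.98, a log2 difference of -0.23 (SE 0.10). Neither overlapped between groups, as was so for 11.5% of all genes, and both had an adjusted p of 0.84 (limma).

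The remaining 5 lists held no called gene. Among 6 E-proteins and Id inhibitors, which pair with Twist proteins or block such pairs, the log2 difference was -0.16 (SE 0.10) in *Tcf4* and -0.11 (SE 0.10) in *Id4*. Among 8 corepressors it was -0.26 (SE 0.12) in *Rcor1*, the CoREST scaffold, and 0.19 (SE 0.10) in *Limd1*, a LIM protein. Among 8 regulators of Snail protein stability it was -0.18 (SE 0.10) in *Fbxo45* and 0.16 (SE 0.09) in *Btrc*, both ubiquitin ligase subunits. Among 7 opponents of epithelial-mesenchymal transition it was 0.15 (SE 0.13) in *Esrp2*, a splicing factor of epithelia, and -0.13 (SE 0.10) in *Ovol1*, a repressor in epithelia. Among 10 Twist-related genes it was 0.28 (SE 0.17) in *Msc* and 0.13 (SE 0.13) in *Tcf23*. All 10 of these genes had intervals that included 0. Groups did not overlap in *Tcf4*, *Rcor1*, and *Fbxo45*, which were lower, and in *Btrc*, which was higher. Over all 55 genes of the 7 lists this was so for 2 higher and 7 lower. Over all genes the shares were 5.91% and 5.56%, and the counts were not tested.

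**Figure D5:**
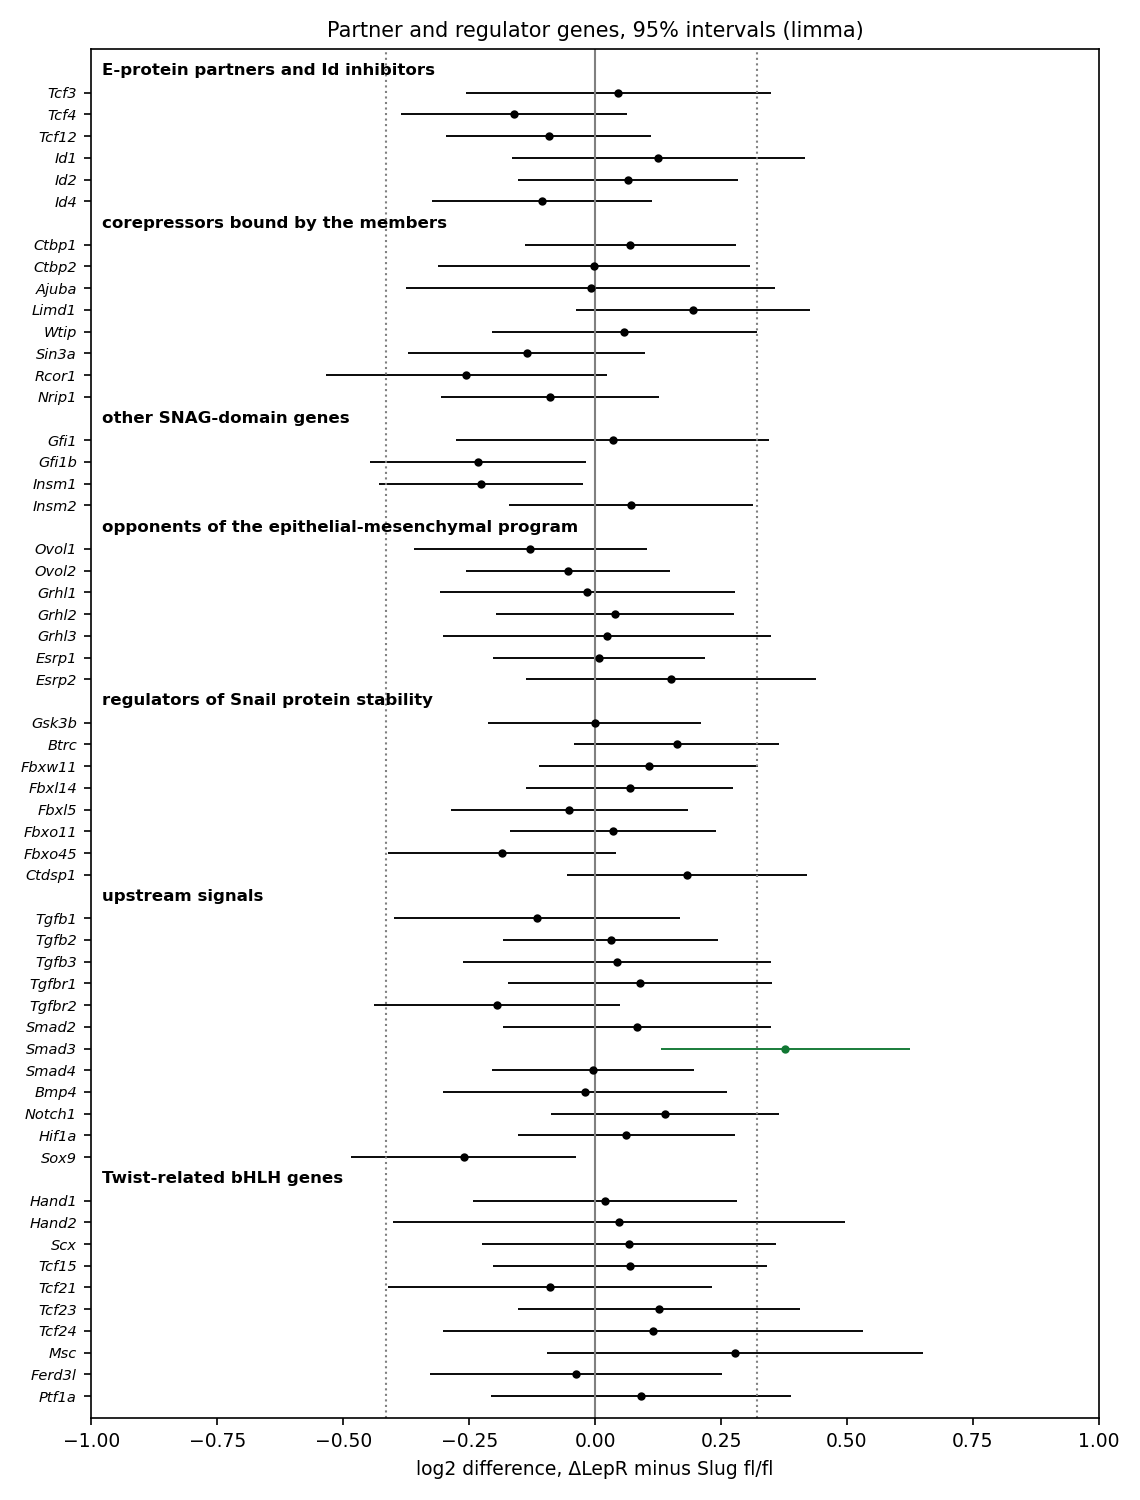
Log2 difference, ΔLepR minus Slug fl/fl, with 95% intervals from limma, for the 55 measured partner and regulator genes in 7 lists. Dotted lines mark 25% higher and 25% lower, and *Smad3* (green, 0.38) is the only gene called.

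The E2 box was also counted in the promoter windows of all tested genes that had one. Of 3710 genes with the box, 30 were called lower (0.809%) and 49 higher (1.32%), with a median log2 difference of -0.00094. Of 12875 genes without it, 53 were called lower (0.412%) and 187 higher (1.45%), with a median of 0.0030. These shares were not tested against each other. With the group labels exchanged, the lower genes come from those called higher here, at a stricter fold limit. The order of the shares then turned, at 0.539% lower with the box and 0.645% without. The shares of lower genes also moved with single arrays. With ΔLepR array 1, 2, or 3 left out, the share was 0.916%, 1.24%, and 0.943% for genes with the box. For genes lacking the box it was then 0.769%, 0.621%, and 0.761%. With control array 1, 2, or 3 left out, it was 1.11%, 0.997%, and 0.970% for genes with the box. For genes lacking the box it was then 0.536%, 0.699%, and 0.629%. The share of lower genes was higher with the box in each of these fits, which have most of their arrays in common. Shares of higher genes kept no such order. Without ΔLepR array 1 they were 2.18% with the box and 2.03% without it. Without control array 1 they were 1.48% and 1.70%. The median level was 4.09 in genes with the box and 4.35 in those without, and the part of level in these shares was not tested.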

How the data were processed

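Hypothalamic total RNA was labeled with a whole-transcript kit and hybridized to 6 Affymetrix GeneChips, 3 per group. The authors deposited 24663 rows of processed values, taken here to be log2 because they range from 0.90 to 12.43. MAS5 appears in the submitters' notes, with no role or version. For background correction and normalization, the sources used here give nothing further. Without scanner data no value could be set against background, and the number of arrays limits precision.

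The platform annotation gave 1 gene symbol to 21925 rows, several to 818, and none to 1920. The brightest row per gene left 21507 genes. Groups were compared with limma 3.58.1 in R 4.3.3, with no covariate and no further normalization, and p-values were adjusted by Benjamini-Hochberg over all 21507 genes. Calls used the p and fold limits that the study applied. The fit was tested on simulated data. These were drawn from the spread that the fit itself assumes, which checks the code and not that assumption. The members and gene lists were chosen with earlier results of these data known. Named genes are all members, the called genes of each partner list or otherwise its 2 with the smallest p, and the 3 nearest to the *Snai2* profile in each direction. *Sox9*, *Tgfb1*, *Tgfb2*, *Tgfb3*, *Tgfbr1*, *Tgfbr2*, and *Bmp4* were named after their values were seen. Promoter windows came from RefSeq. Alternatives were the methods' t-test, a robust prior with an intensity trend, other scalings (quantile, median), fewer genes (dim ones dropped), row means, array weights, a replicate block, all rows, and each array left out.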

Additional observations from a re-analysis of the deposited data

How the results depend on the processing

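*Snai2* kept its direction and its call in all 15 alternatives, between 5.93 and 6.34 on the log2 scale, and no member was called lower in any. With single arrays left out, 1 to 2 members were called higher, the other being *Twist2* without ΔLepR array 3. The smallest differences turned sign as arrays were left out, with *Scrt1* between -0.25 and 0.14, *Scrt2* between -0.025 and 0.17, and *Zeb1* between -0.068 and 0.022. The other members kept their signs where tested. *Snai1*, *Snai3*, *Twist1*, and *Twist2* drop out with the dim genes. Among partner genes 0 to 2 were called higher as arrays were left out, 0 without control array 2 and both *Smad3* and *Msc* (0.42) without ΔLepR array 2. Over all genes 309 were called higher and 124 lower, against 156 and 62 with the methods' t-test, 135 and 56 with dim genes left out, where fewer genes were tested, and 368 to 463 and 153 to 189 with an array left out. Genes past an adjusted p of 0.05 numbered 3 in limma, 0 with the methods' t-test, 6 with the trend and robust prior, 5 with dim genes left out, and 1 to 3 with an array left out. The exchange of group labels and the E2 box shares were added after seeing the data, and with the methods' t-test the shares of lower genes were 0.431% with the box and 0.210% without. Titles number the arrays of both groups 1 to 3, and same-numbered arrays did not deviate together (no correlation above 0.1). With 3 arrays per group, each centred on its group mean, this cannot exclude that the numbers pair the samples. With the replicate block *Snai2* was at 6.09 (adjusted p = 2.6e-06, limma), 348 genes were called higher and 138 lower, 1 gene passed an adjusted p of 0.05, and no member's call changed. *Snai1*, *Snai3*, and *Twist2* lay in the lower part of every array, with no background to set them against.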
